A study of Caenorhabditis elegans with 2 samples.

Results

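The genes described here encode proteins of the eggshell and of the oocyte surface of Caenorhabditis elegans: cpg-1, cpg-2, cpg-3, chs-1, cbd-1, perm-2, perm-4, egg-1 and egg-2. They are 9 of 19973 protein-coding genes on the nuclear chromosomes, named as a list, and were selected on the presence and rank of REPO-1 peaks near them in the same peak lists that are reported below. Their peak counts and ranks are therefore a description, with no test. A peak was assigned to a gene when its summit lay in the gene or within 1000 bp of it.

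The C. elegans eggshell is built around the oocyte in successive layers after fertilisation. The outer vitelline layer is assembled around the oocyte beforehand. A chitin layer made by the chitin synthase CHS-1 follows, then a layer of the chondroitin proteoglycans CPG-1 and CPG-2, and last a permeability barrier that closes the embryo off. PERM-2 and PERM-4 are vitelline layer proteins needed for an intact barrier, the chitin-binding protein CBD-1 anchors them, and EGG-1 and EGG-2 are transmembrane proteins of the oocyte surface with LDL-receptor repeats that sperm entry requires. These genes are transcribed in the adult germ line, and many worm pre-mRNAs receive a spliced leader at their 5′ end by trans-splicing.

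REPO-1 corresponds to SF3A2 of mammals, a protein of the U2 snRNP, the splicing particle that recognises the branch point of introns. ChIP-seq was made from strain OP688, genotype unc-119(tm4063) III; wgIs688, in which an integrated transgene expresses REPO-1 fused at its C terminus to GFP and FLAG, and chromatin was precipitated by an anti-GFP antibody. The 2 biological replicates formed a single group, each of pooled males and females collected as young adults, 53 hours after synchronisation by L1 starvation. No untagged strain or second genotype was among the samples, and whole animals were used, so germ line and somatic signal cannot be told apart, and the labels do not say which cells express the transgene. Reads behind each peak are not counted in the lists, so the depth is unknown and no counting interval can be given.

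The authors deposited a list of 30000 summits for each replicate, a list of 30000 summits called on both replicates pooled, and a replicated list of 1789 summits selected by IDR, a measure of how reproducibly peaks rank between replicates. The replicated list was exactly the 1789 strongest summits of the pooled list, so rank 1 is the strongest in both. Signal is the authors' own value for each peak, on a scale that is not stated. It ran from 131.52 to 1218 with a median of 173 in the replicated list, and it was used only within a list. Coordinates are on ce11, the same assembly as WBcel235.

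REPO-1 peaks of the replicated list lay near 5 of the 9 genes, cpg-1, cbd-1, cpg-2, cpg-3 and egg-1, with 7 summits in all. The background was 10.7% of all protein-coding genes, 2132 of 19973, and also 10.7% among the 10826 genes between 1359 and 5062 bp long, the length range of these 9. The peak beyond the 3′ end of cpg-1 was far stronger than the others, at rank 100 and signal 401, and the remaining 6 ranked from 812 to 1706. The pooled list, which has no significance threshold, held a summit near 8 of the 9, against 58.3% of all protein-coding genes, and egg-2 was the exception. Only cpg-1 and cpg-2 had 2 or more replicated summits, against 2.22% of protein-coding genes. The 2 summits of cpg-1 belong to overlapping regions that start at the same base, so they are not separate peaks.

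**Figure D1:**
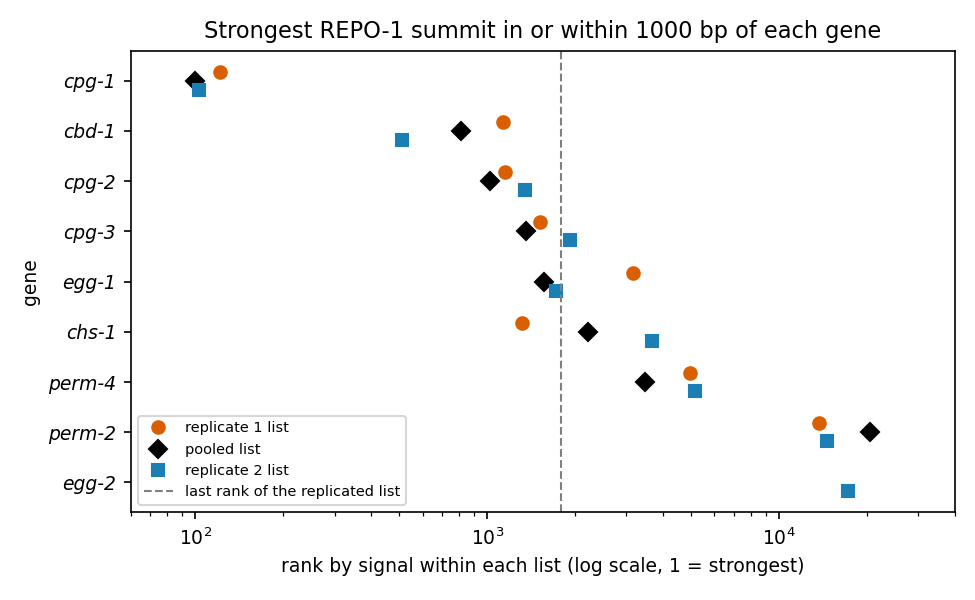
Strongest REPO-1 summit in or within 1000 bp of each gene. The horizontal axis is the rank of the summit by signal on a log scale, with 1 the strongest, in the pooled list (diamonds), the replicate 1 list (circles) and the replicate 2 list (squares), and the dashed line marks rank 1789, the last of the replicated list. The points of cpg-1 lie between ranks 100 and 121. For cpg-3, egg-1 and chs-1 there are points on both sides of the line, and egg-2 has a point in replicate 2 alone.

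The plot of strongest ranks by gene sets the replicates side by side, for whichever summit was strongest in each. At cbd-1, cpg-2 and chs-1 the strongest summit was at a different site in each replicate. The strongest summit of cpg-1 was at rank 121 in replicate 1 and rank 103 in replicate 2. For cbd-1 the ranks were 1132 and 512, for cpg-2 1148 and 1342, and for cpg-3 1516 and 1927. These 4 genes were within the first 1789 in both replicates, except cpg-3 in replicate 2. For egg-1 the ranks were 3156 and 1725, for chs-1 1311 and 3674, and for perm-4 4964 and 5158. The first pair of these genes was on opposite sides of rank 1789 in the 2 replicates, in opposite directions, while perm-4 was well below it in both. The strongest summit of perm-2 ranked 13715 and 14636, and egg-2 had none in replicate 1 and 1 of rank 17170 in replicate 2. At a single site, the 3′ summit ranked 1770 in replicate 1 and 512 in replicate 2 at cbd-1. The 3′ summit of cpg-2 ranked 1148 and 1519, and that of chs-1 ranked 1311 and 13653.

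Of the 7 replicated summits, 4 overlapped a region among the 1789 strongest of both replicates: both summits of cpg-1, the 3′ summit of cpg-2 and that of cbd-1. All 4 lay beyond the 3′ end of the gene. The other 3, inside cpg-2, at the end of cpg-3 and upstream of egg-1, were each outside the first 1789 of 1 replicate. The nearest replicate summit of an overlapping region was 0 to 27 bp from the pooled summit, except for cpg-3, where replicate 2 differed by 102 bp. Taking the nearest summit favours small distances, and the pooled list was called on the same 2 replicates.

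The first proteoglycan gene, cpg-1 (WBGene00000465), lies on the plus strand of chromosome III from 4489359 to 4491392 and has 3 introns in 2034 bp. Its strongest replicated peak spans 4491126 to 4491784, with the summit at 4491493, 101 bp beyond the annotated 3′ end and 234 bp beyond the last coding base. The signal was 401 in the pooled list, 229 in replicate 1 and 174 in replicate 2, and the replicate summits were 8 and 12 bp away. The summit falls in an intergenic gap of 234 bp that separates the 3′ ends of cpg-1 and of atf-7, a bZIP transcription factor gene of the innate immune response transcribed from the opposite strand. The same summit is 134 bp beyond the 3′ end of atf-7, so it cannot be assigned to either gene. A second replicated summit, of rank 891 and signal 174, lay at 4491695, 303 bp beyond cpg-1 and 68 bp inside the 3′ untranslated region of atf-7. Its region, 4491126 to 4491805, overlaps that of the first and starts at the same base. This second summit ranked 650 in replicate 1 and 1538 in replicate 2. Inside cpg-1 the pooled list had a single summit, of rank 22091 in a coding exon. Replicate 2 also had a summit 206 bp upstream of the 5′ end, of rank 2559, which has no counterpart within 1000 bp upstream in the other lists. The sequence of the whole gap is shown because it holds the strongest summit of the 9 genes, and the 21 bases centred on that summit are in capitals (chrIII:4491393-4491626, plus strand, ce11).
cpg-1: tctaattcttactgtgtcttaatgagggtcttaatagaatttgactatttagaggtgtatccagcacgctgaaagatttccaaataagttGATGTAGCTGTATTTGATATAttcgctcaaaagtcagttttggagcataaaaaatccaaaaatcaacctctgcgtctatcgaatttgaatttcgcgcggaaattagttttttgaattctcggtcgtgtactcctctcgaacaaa

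Across the gap GC content was 35.5%, close to the genome's 35.4%, and T made up 34.6% of bases. Of the 833 protein-coding genes whose strongest replicated summit lay downstream, 831, cpg-1 included, had an overlapping region in both replicate lists. Among these the 3 with ranks most like those of cpg-1 over the replicated and both replicate lists were atf-7, pbs-2 and vit-2, by Euclidean distance in log10 rank. For atf-7 the distance is 0 since the summit is shared. The summit near pbs-2, a proteasome core subunit gene, ranked 108, 123 and 100 in the replicated, replicate 1 and replicate 2 lists and lay 280 bp beyond the gene's 3′ end. That near vit-2, a yolk protein gene, ranked 97, 117 and 84 and lay 128 bp beyond the 3′ end.

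The second proteoglycan gene, cpg-2 (WBGene00015102), lies on the minus strand of chromosome III from 7102092 to 7103990, with 4 introns in 1899 bp. It shares 0 words of 31 bases with cpg-1. A global alignment of its CDS to that of cpg-1 gave 56.1% identity over 1484 ungapped bp, with no unrelated pair aligned for comparison. Its stronger replicated summit, at 7101974, ranked 1021 with signal 164, 118 bp beyond the 3′ end. It ranked 1148 in replicate 1, at the same base, and 1519 in replicate 2, 23 bp away. The 3′ end of cpg-2 is 42 bp from that of ZK418.11 on the opposite strand, and the summit lies 75 bp inside ZK418.11, in its 3′ untranslated region. As at cpg-1, the summit was therefore shared with a convergent neighbour.

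The other cpg-2 summit, at 7103083, was inside the gene, in a coding exon, 907 bp from the 5′ end and 991 bp before the 3′ end. It ranked 1706 with signal 134, close to the bottom of the replicated list, 4664 in replicate 1 and 1342 in replicate 2. Replicate 2 alone placed it among the first 1789, where it was the strongest summit of the gene. It was the weakest of the 7 replicated summits, and the strongest summit of the 9 genes just outside the list was that of chs-1, at pooled rank 2220 and signal 122. The exon at this summit was richer in G and C than the sites beyond 3′ ends, at 51.7% over the 201 bases shown, given on the minus strand with the central 21 bases in capitals (chrIII:7102983-7103183, ce11).
cpg-2: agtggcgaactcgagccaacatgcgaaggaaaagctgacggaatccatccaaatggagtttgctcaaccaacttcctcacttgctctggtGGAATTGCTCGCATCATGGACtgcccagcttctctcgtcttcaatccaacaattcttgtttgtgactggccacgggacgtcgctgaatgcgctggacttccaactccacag

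The third proteoglycan gene, cpg-3 (WBGene00011063), lies on the plus strand of chromosome I from 7244937 to 7246295, with 4 introns in 1359 bp, the shortest of the 9. Its replicated summit at 7245975 ranked 1358 with signal 146, in the last coding exon, 1038 bp from the 5′ end and 39 bp before the last coding base. Replicate 1 had it at rank 1516, 15 bp away, and replicate 2 at rank 1927, 102 bp away in the 3′ untranslated region. The gene has 2 annotated transcripts: the summit was 320 bp before the end of the longer and 127 bp before the end of the shorter. R06C7.6, on the opposite strand, overlaps the last 221 bp of cpg-3, and the summit was 100 bp beyond the 3′ end of R06C7.6. Of all 31-base words in cpg-3, 14.2% occur elsewhere in the genome or more than 1 time in the gene, the highest share within any of the 9 genes, and how multiply mapping reads were treated is not given in the sources used here.

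The chitin synthase gene chs-1 (WBGene00000496), on the plus strand of chromosome I from 7554855 to 7559916, is the longest of the 9, at 5062 bp with 10 introns. It had no replicated summit, and its 3 strongest pooled summits ranked from 2220 to 3256, beyond the end of the replicated list. The first, of rank 2220 and signal 122, lay at 7559783, 133 bp before the end of the longer transcript and 154 bp beyond the end of the shorter, and 56 bp upstream of T25G3.3, the next gene on the same strand. The second, of rank 2331 and signal 119.8, lay in a coding exon 1723 bp from the 5′ end. The third, of rank 3256 and signal 106, lay 104 bp upstream of the 5′ end. The replicates differed here. Replicate 1 had the 3′ summit at rank 1311 and the exon summit at rank 1730, both within its first 1789, whereas replicate 2 had them at ranks 13653 and 9021. Replicate 2 was instead strongest upstream, 97 bp before the gene, at rank 3674, where replicate 1 ranked 6600.

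The divergent pair perm-2 and perm-4 encode proteins that depend on each other in the vitelline layer. Their 5′ ends are 1682 bp apart on chromosome IV, with perm-2 (WBGene00016636) at 1126790 to 1128865 on the plus strand and perm-4 (WBGene00016638) at 1121494 to 1125107 on the minus strand. Neither had a replicated summit. For perm-4 the strongest summit was in a coding exon, 1642 bp from the 5′ end in the pooled list, 1636 bp in replicate 1 and 1643 bp in replicate 2, with ranks 3469, 4964 and 5158. The position was nearly the same in all 3 lists, and in none of them was it within the first 1789. For perm-2 all 5 pooled summits ranked below 20000, the best at 20496 with signal 47.6, where the pooled list ends at 36.5. No list held a summit in the gap between the pair within 1000 bp of either gene, and the pooled summits nearest to their 5′ ends were 262 bp inside perm-2 and 109 bp inside perm-4, at ranks 28930 and 21871. Of the 31-base words in the gene and 1000 bp around it, 10.7% at perm-2 and 6.34% at perm-4 were repeated in the genome.

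The gene of the chitin-binding protein that anchors PERM-2 and PERM-4, cbd-1 (WBGene00010351), lies on the plus strand of chromosome IV from 11372991 to 11377627, with 9 introns in 4637 bp. Its replicated summit at 11377664 was the strongest after that of cpg-1, at rank 812 and signal 181, and lay 37 bp beyond the 3′ end and 298 bp beyond the last coding base. It ranked 1770 in replicate 1, 10 bp away, and 512 in replicate 2, 3 bp away. The next gene, fbxb-76, ends 543 bp downstream on the opposite strand, so the summit was nearer to cbd-1. Lower summits were spread along the body: the pooled list had 8 in all, including rank 3152 in a coding exon 1327 bp from the 5′ end and rank 3174 at 187 bp upstream. In replicate 1 the exon summit was the stronger, at rank 1132 and 1347 bp from the 5′ end. The nearest summit to it in replicate 2, 1242 bp from the 5′ end, ranked 14323. Replicate 2 had its strongest summit inside the gene in another coding exon, 426 bp from the 5′ end, at rank 2180. The 150 bases that follow the 3′ end are shown because they hold the strongest summit after that of cpg-1, with the central 21 bases in capitals (chrIV:11377628-11377777, plus strand, ce11).
cbd-1: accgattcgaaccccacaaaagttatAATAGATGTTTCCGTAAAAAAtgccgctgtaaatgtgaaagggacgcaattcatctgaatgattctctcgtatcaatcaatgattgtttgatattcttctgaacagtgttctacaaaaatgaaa

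The oocyte surface gene egg-1 (WBGene00015083), on the plus strand of chromosome III from 5728180 to 5730159, was the only gene of the 9 whose strongest replicated summit lay upstream. The summit at 5727992 ranked 1569 with signal 138, in an intergenic stretch 188 bp before the 5′ end. It ranked 3156 in replicate 1, 175 bp upstream, and 1725 in replicate 2, 215 bp upstream. The gene upstream, wrm-1, ends 1064 bp away on the same strand. Beyond the 3′ end, where egg-1 overlaps B0244.9 by 42 bp, the strongest pooled summit ranked 6105, and inside the gene the strongest ranked 6812. The 300 bases before the 5′ end are shown with the 21 bases centred on the summit in capitals, and the last 6 bases, TTTCAG, are letters common at worm 3′ splice sites and stand directly before the annotated 5′ end (chrIII:5727880-5728179, plus strand, ce11).
egg-1: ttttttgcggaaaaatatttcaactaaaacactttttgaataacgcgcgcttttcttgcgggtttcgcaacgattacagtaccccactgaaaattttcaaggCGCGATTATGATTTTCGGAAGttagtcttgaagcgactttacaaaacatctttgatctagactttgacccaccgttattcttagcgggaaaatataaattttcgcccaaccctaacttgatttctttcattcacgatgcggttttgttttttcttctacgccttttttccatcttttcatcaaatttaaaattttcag

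Its paralogue egg-2 (WBGene00019811), on the minus strand of chromosome III from 7058527 to 7060583, stood at the other end of the range. The coding sequences of the pair were 71.1% identical over 1632 aligned bp, both genes have 4 introns, and their lengths are 1980 and 2057 bp. The pair shares 0 words of 31 bases, and 0% of the words of each gene are repeated elsewhere in the genome. Of listed summits egg-2 had 0 summits in the pooled list and 0 in replicate 1, while replicate 2 had a single summit of rank 17170 and signal 23.4, in a coding exon 788 bp from the 5′ end. The 3′ end of egg-2 directly abuts that of the convergent gene R01H2.2, with 0 bp between them, and no list held a summit within 1000 bp beyond it.

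**Figure D2:**
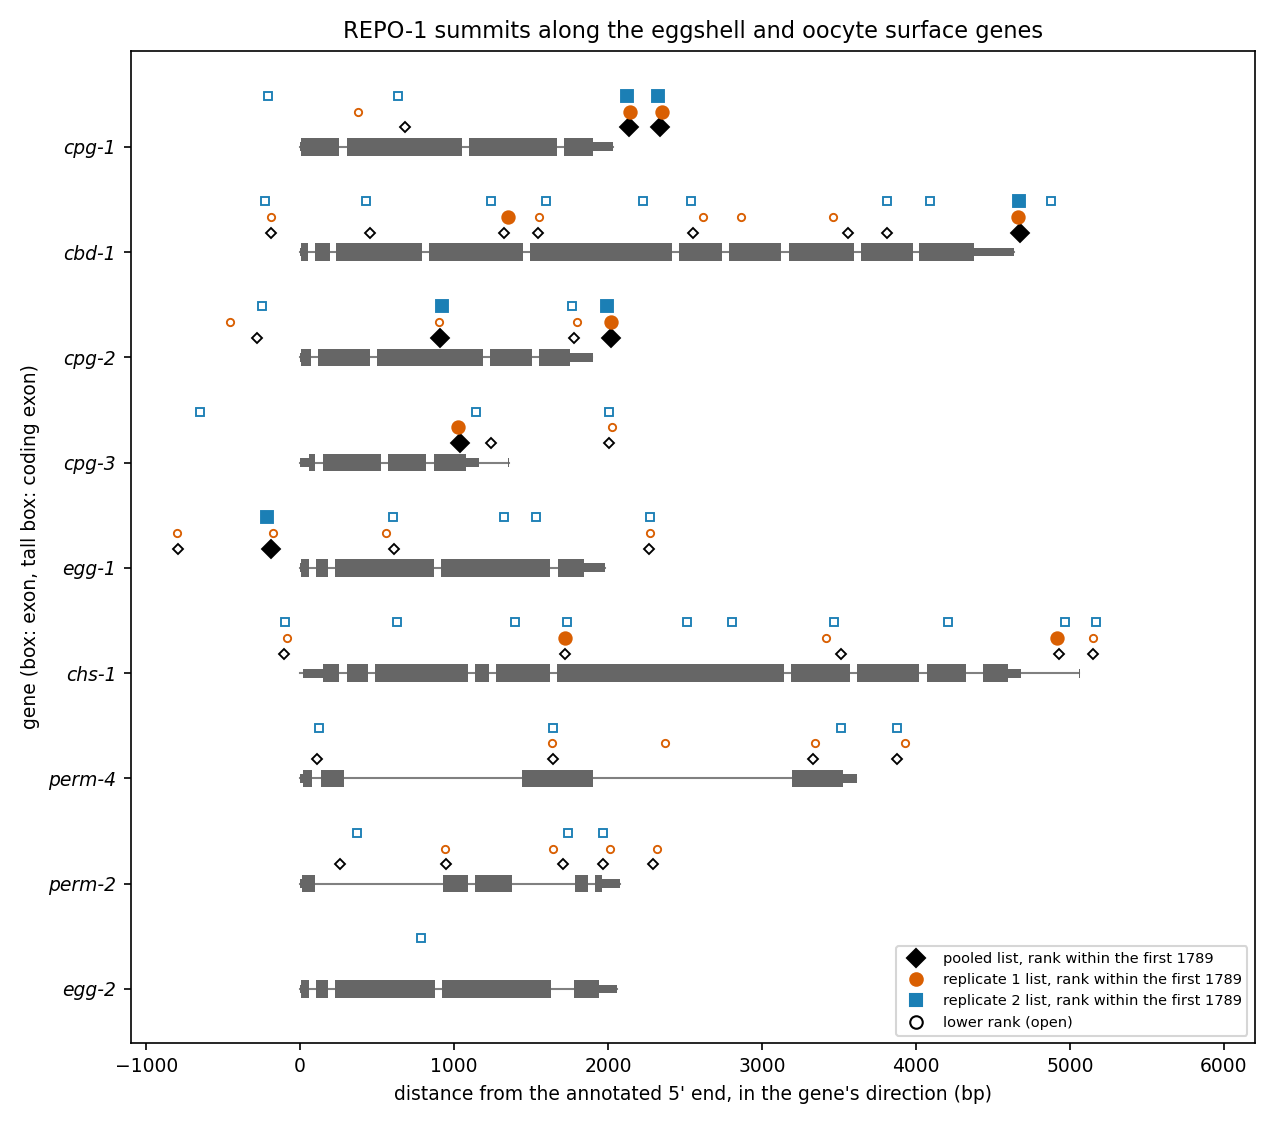
Positions of all REPO-1 summits along the 9 genes. The horizontal axis is the distance in bp from the annotated 5′ end in the direction of transcription, grey boxes are exons (tall where coding), and markers above each gene are summits of the pooled list (diamonds), replicate 1 (circles) and replicate 2 (squares), filled where the rank is within the first 1789 of that list. Filled markers of all 3 lists stand together beyond the 3′ ends of cpg-1, cpg-2 and cbd-1, while those of chs-1 are from replicate 1 alone and egg-2 has 1 open marker.

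The map of summits along the genes shows the positions side by side. Among the 5 genes with a replicated summit, the strongest was downstream in 3 (cpg-1, cpg-2 and cbd-1), inside the gene in 1 (cpg-3) and upstream in 1 (egg-1). These positions are those of the pooled ranks, and they differ in single replicates: the strongest summit of cbd-1 was inside the gene in replicate 1 and that of cpg-2 in replicate 2. With replicate 1's first 1789 summits the count inside the gene was 3 and with those of replicate 2 it was 1. Over the 2132 protein-coding genes with a replicated summit, the strongest was downstream in 39.1%, inside in 31.4% and upstream in 29.5%. Within 500 bp of the annotated 3′ end, on either side, 4 of the 9 genes had a replicated summit (cpg-1, cpg-2, cpg-3 and cbd-1), against 5.1% of all protein-coding genes. Within 500 bp of the 5′ end 1 of 9 did (egg-1), against 3.64%, and inside the gene 2 of 9 did (cpg-2 and cpg-3), against 3.98%. Since the genes were chosen on these peaks, the shares describe them and support nothing further. With replicate 2's own first 1789 summits cpg-3 leaves the 3′ group, giving 3 genes, and with those of replicate 1 chs-1 joins it, giving 5.

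**Figure D3:**
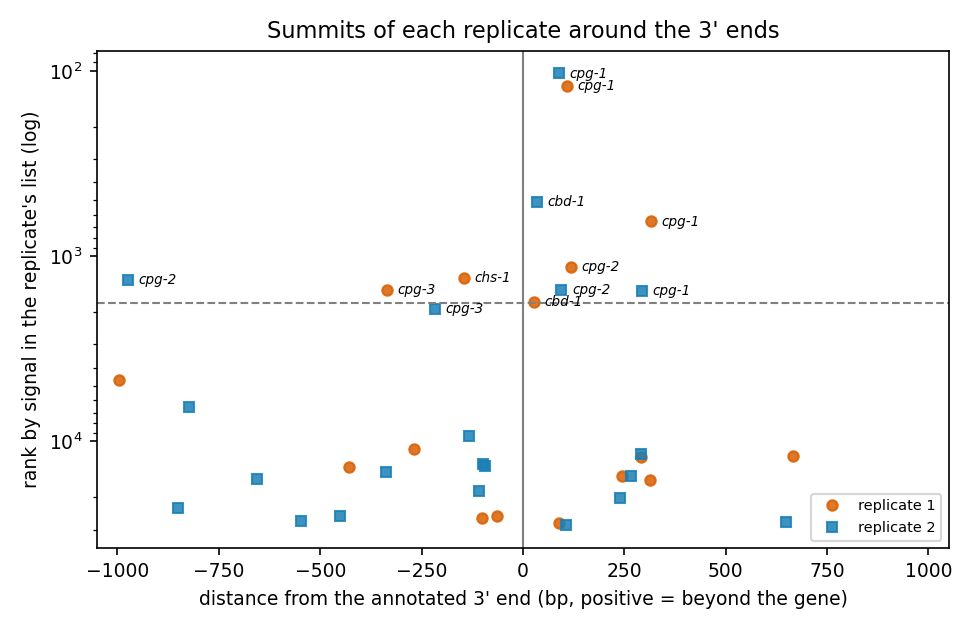
Summits of each replicate within 1000 bp of the annotated 3′ ends of the 9 genes. The horizontal axis is the distance from the 3′ end in bp, positive beyond the gene, and the vertical axis is the rank by signal in the replicate's own list on a log scale, strongest at the top, with circles for replicate 1, squares for replicate 2 and a dashed line at rank 1789. Names are given for the stronger summits: cpg-1, cpg-2 and cbd-1 lie just beyond the end in both replicates, and chs-1 is above the line in replicate 1 alone.

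A convergent neighbour, a gene on the opposite strand ending within 1000 bp of the 3′ end or overlapping it, was present at 7 of the 9 genes, all but chs-1 and perm-4, against 34.4% of protein-coding genes. Among the 6876 genes with such a neighbour, 7.23% had a replicated summit within 500 bp of the 3′ end, and all 4 of the genes named above were among them. The other 3 convergent genes, egg-1, egg-2 and perm-2, had none there. At cpg-1, cpg-2 and cpg-3 a summit lay nearer to an end of the neighbour than to the ends of the gene itself. The part of the neighbouring transcription unit in these peaks was not tested.

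**Figure D4:**
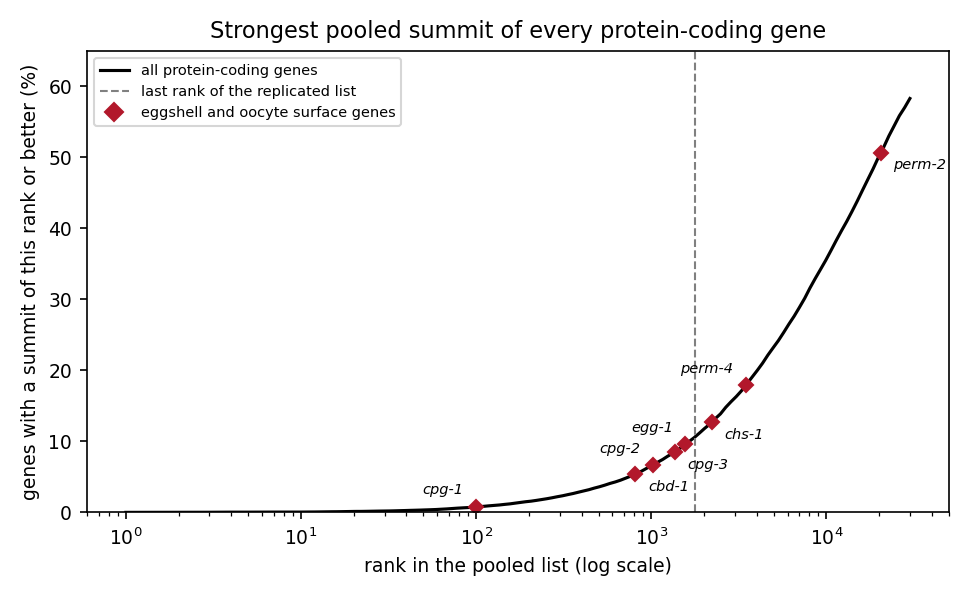
Strongest pooled summit of every protein-coding gene. The curve gives, on the vertical axis, the percentage of the 19973 protein-coding genes whose strongest summit in or within 1000 bp reaches the rank on the horizontal log axis, diamonds mark the eggshell and oocyte surface genes, and the dashed line is rank 1789. At rank 100 the curve stands at 0.771%, at the dashed line at 10.7% and at the end of the list at 58.3%. Only 8 genes are drawn because egg-2 has no pooled summit.

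The curve over all genes places each of the 9. By strongest pooled summit cpg-1 was number 153 of 19973 genes, and number 178 and 151 in replicates 1 and 2. The next was cbd-1 at number 1079, followed by cpg-2 at 1334, cpg-3 at 1686 and egg-1 at 1917. The replicates spaced these genes differently: cbd-1 and cpg-2 stood side by side at numbers 1454 and 1468 in replicate 1, and at 716 and 1665 in replicate 2. The genes without a replicated summit followed at numbers 2538 for chs-1, 3581 for perm-4 and 10126 for perm-2, the last just past the middle of the protein-coding genes.

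Over all summits in and around the 9 genes, 36 were in the pooled list, 33 in replicate 1 and 44 in replicate 2. In coding exons of the genes lay 15, 14 and 22 of them, in introns 5, 3 and 4, and in 3′ untranslated regions 2, 2 and 3. The intron class includes the ends of chs-1 and cpg-3, which are intronic only by their longer transcripts. Most of these summits were weak: 7 of the 36 pooled ones are in the replicated list, and of those none lay in an intron and 2 lay in coding exons. REPO-1 is known to act on introns in RNA. Summits of any strength were more often over coding exons than over introns of these genes, whose combined length is mostly coding exon.

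Base composition at the replicated summits differed with their position. In windows of 301 bp, GC content was 31.6% at cbd-1, 34.2% and 35.9% at the cpg-1 summits, 35.2% at egg-1 and 37.2% at the 3′ summit of cpg-2, all intergenic or in untranslated sequence, and 42.5% and 51.5% at the coding exon summits of cpg-3 and cpg-2. Across all 1789 replicated summits the median was 40.5%, with quartiles at 35.9% and 45.5%. The 2 windows of cpg-1 overlap, so the 7 windows are not all separate, whereas the genome windows used below do not overlap. The letters AATAAA, the worm's commonest polyadenylation signal, were searched on both strands. They occurred in 5 of the 7 windows, both of cpg-1 among them, with 3 matches at cbd-1 and 2 at cpg-3. The shares were 45.4% of all replicated windows and 50.7% of 333129 windows of the same length along the genome. The letters TTTCAG, found at worm 3′ splice sites, occurred on either strand in 2 of 7 windows, at the stronger cpg-1 summit and at egg-1, against 37.0% and 48.0%. Both matches were on the strand opposite to the gene, and the TTTCAG directly before the 5′ end of egg-1 lay outside its window. Directly before the annotated 5′ end, on the gene's own strand, TTTCAG stood at 5 of the 9 genes (cpg-1, cpg-2, cbd-1, egg-1 and egg-2), against 12.3% of protein-coding genes. These 5 include egg-2, which has no pooled summit, and leave out cpg-3, which has a replicated summit.

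Other genes of eggshell formation and the oocyte were counted in the same way. Of 38 such genes in the annotation, 6 had a replicated summit within 1000 bp, beside 10.7% of all protein-coding genes. Within 500 bp of the 3′ end 4 of 38 had a replicated summit, beside 5.1%, and within 500 bp of the 5′ end 0 did, beside 3.64%. A pooled summit was near 34 of 38, beside 58.3%. By role, a replicated summit within 1000 bp was found at 1 of 6 genes of egg activation and 0 of 4 further proteoglycan genes. The counts were 1 of 9 for chondroitin synthesis and 0 of 4 for UDP-GlcNAc supply. They were 2 of 8 for the permeability barrier and its lipids, and 2 of 7 for oocyte receptor and RNA-binding genes. The highest rank was 2, above that of any of the 9 genes, at 754 bp upstream of egg-5, a pseudophosphatase gene of egg activation. Another protein-coding gene also had this summit within 1000 bp, so it cannot be assigned to egg-5 alone. At the permeability genes, emb-8, the NADPH-cytochrome P450 reductase gene, had a summit of rank 168, 159 bp beyond its 3′ end and in an intron of moc-6, and pod-2, the acetyl-CoA carboxylase gene, had rank 1467 in a coding exon. The oocyte regulators oma-1 and puf-5 had ranks 1264 and 1489, at 270 and 50 bp beyond their 3′ ends. At sqv-2, a glycosyltransferase gene of chondroitin synthesis, rank 796 lay in an intron 288 bp before the 3′ end. All of these except egg-5 and pod-2 were within 500 bp of the 3′ end.

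Yolk protein genes and germ granule genes gave the following counts. Of 6 yolk protein genes, transcribed in the intestine, 4 had a replicated summit, beside 10.7% of all protein-coding genes. All 4 also had one within 500 bp of the 3′ end, beside 5.1%, and 2 of the 6 had one within 500 bp of the 5′ end, beside 3.64%. The strongest was downstream in each: vit-2 at rank 97, vit-6 at rank 182, vit-5 at rank 279 and vit-3 at rank 1134. They lay 128, 119, 338 and 298 bp beyond the respective 3′ ends, that of vit-2 in a coding exon of C42D8.9 and that of vit-5 in an intron of unc-78. Of 18 germ granule genes, 3 had a replicated summit, beside the same 10.7%, and all 3 had it within 500 bp of the 3′ end, beside 5.1%: csr-1 at rank 571, 41 bp beyond its 3′ end in an intron of frpr-10, hrde-1 at rank 326, inside its own 3′ untranslated region 111 bp before its end, and mut-16 at rank 1187, 74 bp beyond. The summits inside a neighbouring gene cannot be assigned to either gene, and differences between the lists were not tested.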

How the data were processed

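The deposited ce11 peak lists of both replicates were used as they stood. Per the text files deposited with each sample, they derive from the replicates' alignments plus a further file that also enters control-normalized tracks. The aligner, peak caller, versions and IDR threshold were not given in the sources used here. Rows hold 2 values deposited by the authors, a signal of unstated scale and a −log10 q-value, the latter tied at its maximum for 1354 replicated peaks; ranks therefore use the signal. Lists on ce10 were not used.

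Summits were placed on Ensembl release 115 genes (WBcel235), and sequence was read from the RefSeq copy of that assembly. Genes were counted when a summit lay in the gene or within 1000 bp. The genes and comparison lists were chosen with earlier results of these data known, and 2 listed symbols (cpg-5 and cpg-6) matched no gene. Named are the 9 genes, genes with an end nearer to a replicated summit, listed genes with a replicated summit, and the 3 with ranks most like the leading gene. The 500 bp window at the 3′ end was chosen after seeing the data, and those at the 5′ end, sequence windows and motifs likewise. No test was made, because there is 1 group and the genes were chosen on these peaks. Alternatives were other windows, a stricter list, region overlap, regions counted 1 time, nearest gene only, rank by q-value and each replicate alone. Computation used Python 3.11.15, numpy 2.4.6, pandas 2.3.3, Biopython 1.88 and matplotlib 3.10.9, and the placement of summits was tested on simulated data.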

Additional observations from a re-analysis of the deposited data

How the results depend on the processing

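The count of 5 genes with a replicated summit was the same with a 500 bp window or with overlap of the region by 1 bp. It was also the same with only summits to which the gene was nearest (5 summits in place of 7). Counting each region 1 time could not change it, because only regions with identical bounds were merged and the 7 summits had 7 distinct regions. The count was 4 to 5 with 1 replicate's first 1789 summits, cpg-3 leaving without replicate 1, and chs-1 replacing egg-1 without replicate 2. It fell to 2 with summits inside the gene (cpg-2 and cpg-3, 2 summits) and to 2 at or above the median signal (cpg-1 and cbd-1, 3 summits). With the nearest gene only, cpg-2 lost its stronger summit, of rank 1021 beyond the 3′ end, and kept that of rank 1706 inside the gene. The cpg-1 summit of rank 891 was lost as well. The share of protein-coding genes was 9.21% at 500 bp, 3.98% inside the gene, 5.89% at or above the median signal and 6.91% for the nearest gene only. The strongest summit was inside the gene for 1 gene, and for 1 to 3 with a replicate left out. By q-value, cpg-1, cpg-2 and cbd-1 shared rank 677.5 with all tied peaks. With a replicate left out, ranks of the strongest summit, at whichever site, were 103 to 121 for cpg-1 and 512 to 1132 for cbd-1. They were 1148 to 1342 for cpg-2, 1516 to 1927 for cpg-3 and 1725 to 3156 for egg-1. The share of genes with a replicated summit at the 3′ end was 2.78% within 250 bp and 6.52% within 1000 bp, with 3 and 4 of the 9 genes, and these windows were added after seeing the data. The cause of these moves was not tested, beyond the smaller or larger windows themselves. No paired analysis was possible because there is 1 group.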
